A study of Caenorhabditis elegans with 2 samples.

Results

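The genes described here encode subunits and assembly factors of the mitochondrial respiratory chain of the nematode Caenorhabditis elegans, and the measurement is binding of the zinc finger protein ZTF-6 near their starts. They were chosen by name, with earlier results of these data known. The rule took all protein-coding genes of the nuclear chromosomes whose symbol begins with nuo-, cox-, atp-, sdh or ucr-, plus isp-1 and cyc-1. This gave 37 of 19973 protein-coding genes, of which 29 encode structural subunits and 8, all named cox-, encode assembly factors of complex IV. Chromatin immunoprecipitation with sequencing (ChIP-seq) had been done with an antibody against GFP on strain RW12301, in which the ztf-6 gene itself carried a TY1::EGFP::3xFLAG tag (st12301) inserted with CRISPR. The animals were whole young adults of age 62 hours, synchronised as starved L1 larvae after bleaching, and 2 biological replicates made up the only group. Untagged animals were not analysed here. There was no second condition, so the respiratory chain genes were set against the other protein-coding genes. Whole animals were used, so binding in a few tissues and weaker binding in many cannot be told apart.

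The respiratory chain passes electrons from NADH and succinate to oxygen along carriers in the inner mitochondrial membrane. Complex I oxidises NADH, complex II oxidises succinate, complex III passes the electrons to cytochrome c, and complex IV reduces oxygen. The proton gradient that complexes I, III and IV build drives ATP synthesis by complex V. Some core subunits of complexes I, III, IV and V are encoded in the mitochondrial genome, while all of complex II, the remaining subunits of the others and the assembly factors are encoded by nuclear genes such as those described here. In C. elegans many messages are trans-spliced, and genes in operons are transcribed from a start shared with the genes before them, so an annotated start can lie downstream of the promoter.

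The authors deposited ranked lists of candidate peaks and short thresholded lists cut by the irreproducible discovery rate (IDR), some for 1 replicate and some for the whole series. The thresholded list that they call conservative held 551 peaks, each with an IDR of at most 0.01, and the lists of replicate 1 and replicate 2 held 215 and 253. A gene was counted as having a peak when a peak summit lay within 500 bp of any of its annotated transcript starts. Its score was the highest signal value among those peaks. The signal is the authors' own value for each peak on a scale that the sources used here do not give, so it was compared only within a list. The lists hold no read counts, and the sequencing depth behind a signal is unknown.

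In the conservative list 6 of the 37 respiratory chain genes (16.2%, exact 95% interval 6.19 to 32.0) had a peak, against 1.46% of all protein-coding genes. They were cox-5A, cox-5B and cox-6B of complex IV, atp-1 of complex V, ucr-2.1 of complex III and nuo-1 of complex I. All 6 summits lay upstream of the start, as did 85.9% of those paired with other protein-coding genes. In the thresholded list of replicate 1 there were 5 such genes (13.5%), cox-5A, cox-5B, cox-6B, atp-1 and atp-5, against 0.661% of all protein-coding genes. In that of replicate 2 there were 3 (8.11%), cox-5A, cox-5B and atp-1, against 0.696%. The other thresholded list of the series held 5 of the 6 genes of the conservative list, all but nuo-1, against 1.55% of all protein-coding genes. With atp-5, a thresholded peak was found for 7 members in all.

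The genome sequence of 50 bp each side of the summit is shown for the members with a thresholded peak, to set the bound sequences side by side; those of atp-1 and cox-5B are not printed here. Each reads 5′ to 3′ on the strand of the gene and was taken from RefSeq's WBcel235 genome, with ce11 coordinates. Capitals mark the only 6-base words that at least 4 of the 6 windows of the conservative list held on either strand, ACGCAC (or GTGCGT) and CAAGTG (or CACTTG). The atp-5 window is that of the replicate 1 peak, and it holds neither word.
cox-5A (chrIII:12905166-12905266, plus strand): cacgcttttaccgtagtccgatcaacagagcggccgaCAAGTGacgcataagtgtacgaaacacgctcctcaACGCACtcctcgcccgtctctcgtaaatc
cox-6B (chrIII:2786005-2786105, plus strand): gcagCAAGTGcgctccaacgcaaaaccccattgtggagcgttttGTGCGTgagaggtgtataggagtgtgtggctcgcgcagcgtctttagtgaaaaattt
nuo-1 (chrII:11097488-11097588, plus strand): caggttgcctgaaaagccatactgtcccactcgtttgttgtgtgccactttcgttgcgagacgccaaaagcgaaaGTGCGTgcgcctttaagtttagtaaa
ucr-2.1 (chrX:12018077-12018177, plus strand): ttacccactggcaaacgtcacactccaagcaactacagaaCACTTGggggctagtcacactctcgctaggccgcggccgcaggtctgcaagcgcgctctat
atp-5 (chrV:11124092-11124192, minus strand): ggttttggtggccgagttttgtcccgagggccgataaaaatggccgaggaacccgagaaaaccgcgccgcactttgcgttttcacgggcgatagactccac

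No 6-base word was shared by 5 or more of the 6 windows. ACGCAC stood in those of cox-5A, cox-5B, cox-6B and nuo-1, and in 6.53% of all 551 summit windows and 1.67% of windows of the same length centred 200 bp upstream of protein-coding starts. CAAGTG stood in those of atp-1, cox-5A, cox-6B and ucr-2.1, and in 6.90% of summit windows and 4.20% of upstream windows. These words were picked after the windows were read and carry no test. The windows had in common a GC content above that of worm promoters. It was 48.5% to 58.4% in the 6 windows, with a median of 51.0%, against a median of 50.5% over all 551 summits and 33.7% over the upstream windows. The promoters of the 37 genes as a whole, read from 250 bp before to 50 bp after the start, had a median GC content of 35.0%, close to the 34.3% of other protein-coding promoters. At the best ranked summit of the 27 members that had one without passing the threshold of the conservative list, the median was 45.5%, with a range from 25.7% to 61.4%.

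A list of 10 further words was searched on both strands, and 2 of them matched a window of the 6. GCGCGC stood at atp-1 and ucr-2.1, and in 11.25% of all summit windows and 1.39% of upstream windows. GAGAGA stood at cox-5A, and in 17.97% of summit windows and 7.47% of upstream windows. The word TATAAA was in none of the 6 (5.08% of summit windows), nor was the word CACGTG (4.90%), the word GGGCGG (7.80%), the word TGACGTC (0.907%), the word GTTCGA (11.4%), the word CTGCGTC (5.99%), the word TTTCGCG (4.17%) or the word CCCGCC (6.35%), of which CCCGCC and GGGCGG can overlap. Over the promoters of all 37 genes, GGGCGG stood in 7 (18.9%), against 7.83% of all protein-coding promoters. TATAAA stood in 14 of them (37.8%), against 37.9%. CACGTG and TGACGTC stood in 0, against 5.82% and 2.85%. GTTCGA stood in 1 (2.70%, against 9.85%), GCGCGC in 3 (8.11%, against 3.585%) and GAGAGA in 8 (21.6%, against 21.8%). CTGCGTC stood in 1 (2.70%, against 4.34%), TTTCGCG in 2 (5.405%, against 3.775%) and CCCGCC in 3 (8.11%, against 6.48%). None of these differences was tested.

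In the conservative list the highest signals among the members were those of cox-5A and cox-5B of complex IV, followed by atp-1 of complex V. Subunits 5A, 5B and 6B are nuclear subunits of cytochrome c oxidase that surround its mitochondrially encoded core. The cox-5A gene (WBGene00012553; chromosome III, 12905491 to 12906619, plus strand) had a signal of 141.1 in the conservative list, 83.7 in replicate 1 and 59.8 in replicate 2. In these lists its summit lay 275, 305 and 274 bp upstream of the start. That signal ranked 60 of the 551 peaks, and the gene ranked 37 among all protein-coding genes in the ranked list. The authors' IDR of the peak was 0.000156 and their q-value was 0.0457.

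The cox-5B gene (WBGene00000371; chromosome I, 9788725 to 9790050, plus strand) had signals of 127.5 in the conservative list, 78.8 in replicate 1 and 52.7 in replicate 2, with summits 44, 48 and 27 bp upstream. Its q-value of 0.0337 was the smallest of the 6. Neither cox-5A nor cox-5B had another annotated start of any gene within 500 bp of the conservative summit. The cox-6B gene (WBGene00022170) had signals of 82.9 in the conservative list, 46.9 in replicate 1 and 41.0 in replicate 2, where its IDR of 0.125 kept it out of the thresholded list. Its annotation is unusual: the gene spans 87197 bp (chromosome III, 2699663 to 2786859) with 2 starts, and the peak lay 147 bp upstream of the downstream start, at 2786202. It also lay 107 bp upstream of Y71H2AM.20 on the opposite strand.

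The remaining 4 complex IV subunit genes had no thresholded peak in the window. The highest was cox-4, with 47.9 in the conservative ranked list, 28.7 in replicate 1 and 21.9 in replicate 2. Both replicates had a site on each side of its start. In replicate 1 the signals were 28.7 at 448 bp upstream and 18.1 downstream, and in replicate 2 they were 18.4 at 382 bp upstream and 21.9 at 110 bp downstream, so the replicates differed in which site was the higher. The cox-6A gene had 32.6 in the conservative ranked list and 23.1 in replicate 1, and no ranked peak in replicate 2. A conservative peak of signal 91.0 lay 834 bp upstream of cox-6A, outside the window, and within 500 bp of the start of the snRNA gene F54D8.7. The lowest were cox-7C (17.02) and cox-6C (13.2), below the median of 29.0 over protein-coding genes with a ranked peak.

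**Figure D1:**
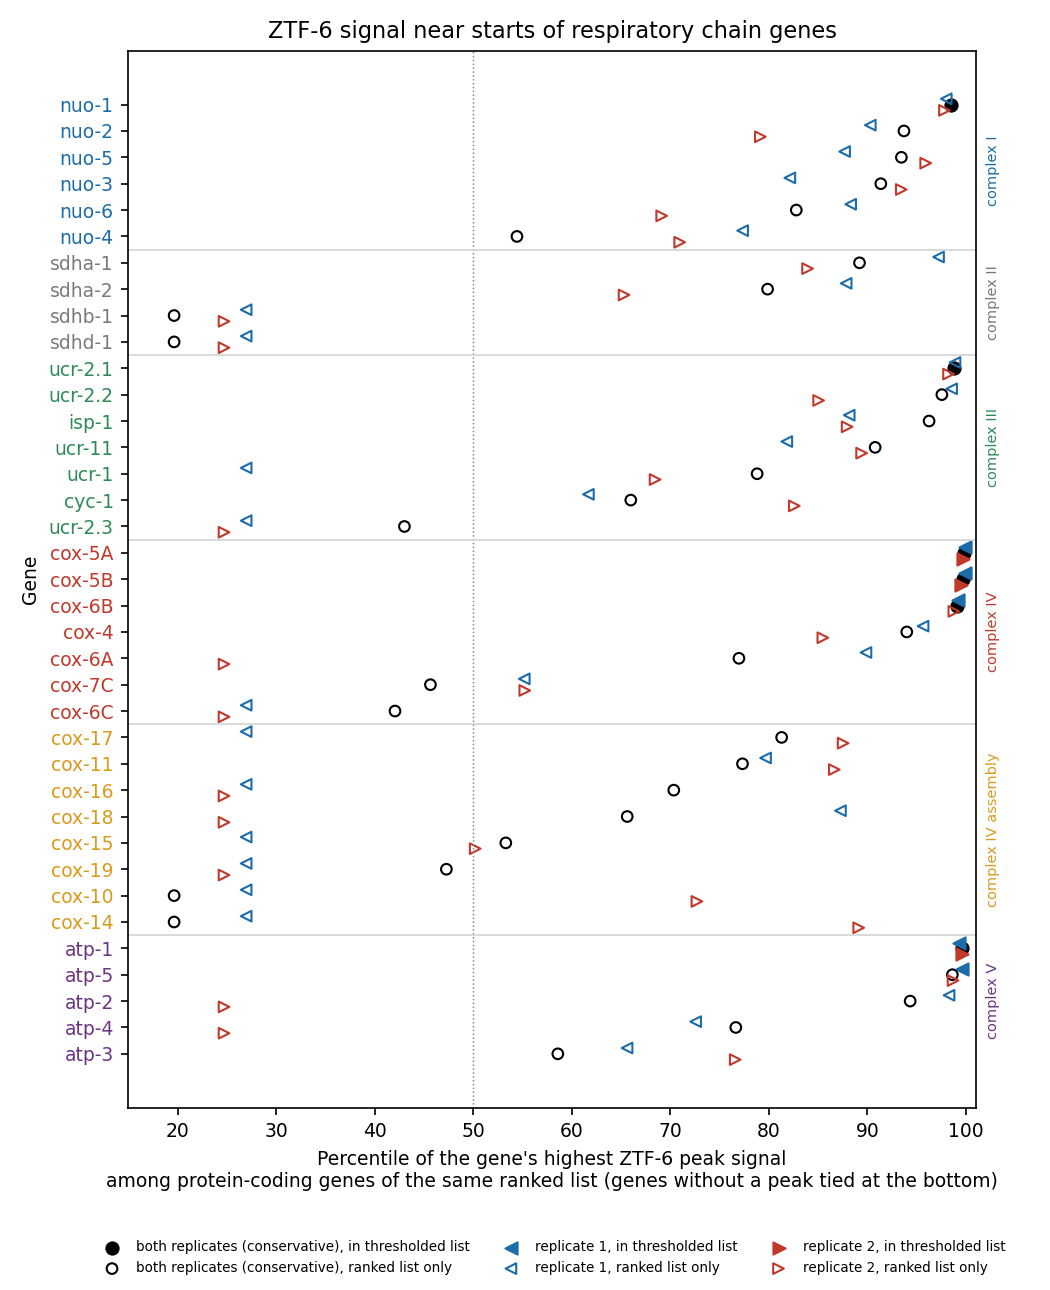
Percentile of each gene's highest ZTF-6 signal among protein-coding genes (x axis) in the conservative, replicate 1 and replicate 2 ranked lists, with genes grouped by complex (y axis) and filled symbols for genes in the matching thresholded list; genes without a peak are tied at the bottom of each list. The structural subunits reach 99.8 at cox-5A, while the assembly factors of complex IV stay at or below 81.3 in the conservative list.

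Complex V makes ATP, and atp-1 and atp-2 encode the alpha and beta subunits of its catalytic head. The atp-1 gene (WBGene00010419; chromosome I, 12652277 to 12654655, plus strand) had a signal of 105.5 in the conservative list, 47.8 in replicate 1 and 58.9 in replicate 2, with summits 28, 28 and 19 bp upstream. The peak also lay 162 bp upstream of mcrs-1, which runs the other way, and 136 bp upstream of the piRNA gene 21ur-12279. Its q-value in the conservative list was 0.0446. The atp-2 gene had a signal of 48.5 in the conservative ranked list and 36.5 in replicate 1, 237 and 230 bp upstream, and no ranked peak in replicate 2. The alpha and beta subunits are present in equal numbers in the enzyme, but only atp-1 had a thresholded peak.

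The atp-5 gene (WBGene00007385; chromosome V, 11122901 to 11123867, minus strand), for a subunit of the stalk of the enzyme, was the only one of the 7 whose best summits lay over 50 bp apart in the replicates. In replicate 1 its signal was 56.4 at 275 bp upstream, and in replicate 2 its best signal was 39.9 at 192 bp downstream. Replicate 2 had signals of only 20.9 and 7.32 upstream, at 158 and 369 bp, and replicate 1 had 17.7 downstream, at 143 bp. The ranked list behind the conservative list gave the upstream site a signal of 72.9, above that of nuo-1, with an IDR of 0.744. In the other ranked list of the series the same site had an IDR of 0.0333. The replicate 1 summit also lay 44 bp upstream of lmtr-3 on the opposite strand.

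Among the other complex V members, atp-4 had 32.4 and atp-3 had 24.0 in the conservative ranked list. A conservative peak of signal 77.5 lay 537 bp upstream of atp-4, just outside the window, with no other annotated start within 500 bp of it. Replicate 2 also had a thresholded peak there, at 557 bp, with signal 40.2. The same-strand gene alh-4 ends 96 bp upstream of atp-4, so both summits lay beyond that end. The members nearest to the edge of the window on either side were thus ucr-2.1, at 302 bp, and atp-4, at 537 bp.

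**Figure D2:**
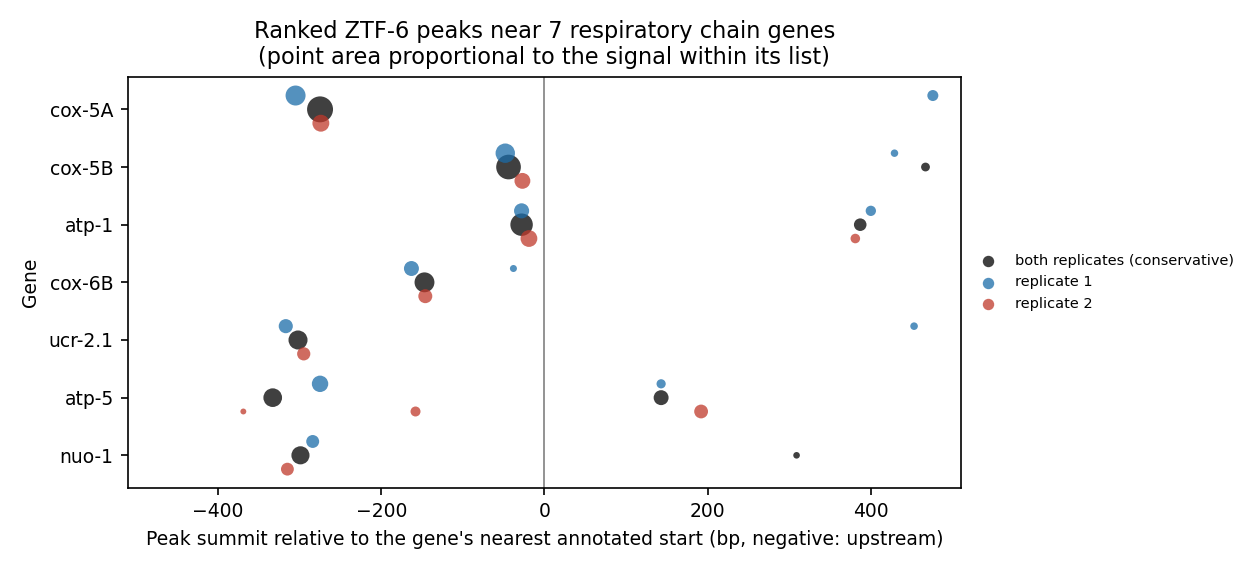
Position of every ranked ZTF-6 peak summit relative to the nearest annotated start (x axis, bp; negative is upstream) near the 7 genes with a thresholded peak (y axis), in the conservative, replicate 1 and replicate 2 ranked lists; point area is proportional to signal. The summits of highest signal in the lists lie within 31 bp of each other at cox-5A. That of atp-5 lies upstream in the conservative and replicate 1 lists and downstream in replicate 2. Peaks of lower signal also lie downstream of the start in some lists at atp-1, cox-5A, cox-5B, nuo-1 and ucr-2.1.

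Complexes I and III each had a single member in the conservative list. The ucr-2.1 gene (WBGene00012158; chromosome X, 12018429 to 12021206, plus strand) is named for ubiquinol-cytochrome c reductase, a core protein of complex III. It had signals of 75.9 in the conservative list, 41.8 in replicate 1 and 36.6 in replicate 2, with summits 302, 317 and 295 bp upstream. It passed the threshold in neither replicate alone, with an IDR of 0.0474 in replicate 1 and 0.841 in replicate 2. The peak lay 84 bp upstream of nmat-1, which encodes an enzyme of NAD synthesis and is transcribed the other way.

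The nuo-1 gene (WBGene00003831; chromosome II, 11097837 to 11100146, plus strand) encodes the NADH-binding flavoprotein subunit of complex I. It had a signal of 68.8 in the conservative list, 35.0 in replicate 1 and 34.6 in replicate 2, with summits 299, 284 and 315 bp upstream. Its IDR of 0.00712 was the highest of the 6, it was missing from both replicate thresholded lists, and its q-value was 0.0963. The summit lay 334 bp upstream of the ribosomal protein gene rpl-36.A on the opposite strand, 10 bp upstream of the ncRNA gene C09H10.11 and 63 bp inside C09H10.13, also an ncRNA gene. Of the 6 peaks 3, those of cox-5A, cox-5B and atp-1, had a q-value at or under 0.05. Over the whole conservative list 221 of the 551 peaks did.

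The other 5 complex I genes had a ranked peak but no thresholded one. The highest were nuo-2, for a subunit of the peripheral arm, at 47.2 and nuo-5, for the large iron-sulfur subunit, at 46.9, in the conservative ranked list. In replicate 1 they had 23.4 and 22.0, and in replicate 2 19.4 and 29.9. The lowest was nuo-4 at 22.1. In complex III, ucr-2.2 had 60.3 in the conservative ranked list, 38.3 in replicate 1 and 21.8 in replicate 2, at 219, 212 and 218 bp upstream, with an IDR of 0.0948. The isp-1 gene, for the Rieske iron-sulfur protein, followed at 53.5, with 22.2 in replicate 1 and 23.1 in replicate 2, both 355 bp upstream. The third ucr-2 gene, ucr-2.3, had only 14.4 and no ranked peak in either replicate. The 3 genes ucr-2.1, ucr-2.2 and ucr-2.3 thus spread from percentile 98.8 over 97.6 to 43.0.

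Complex II and the assembly factors had no thresholded peak. Of the 4 sdh genes, sdhb-1 and sdhd-1, for the iron-sulfur protein and a membrane anchor, had no ranked peak in any of the lists. The flavoprotein genes sdha-1 and sdha-2 had 41.3 and 34.1 in the conservative ranked list. The 8 assembly factor genes had a median percentile of 59.5 among all protein-coding genes, against 90.8 for the 29 structural subunit genes. By complex the median was 92.4 for I, 49.8 for II, 90.8 for III, 94.0 for the 7 subunits of IV and 94.3 for V. The highest assembly factors were cox-17, a copper chaperone, at 35.0 and cox-11, which acts in copper delivery, at 32.8. The cox-10 gene, for an enzyme of heme A synthesis, and cox-14 had no peak in the conservative ranked list. The structural subunit genes were also the higher in each replicate, a difference that was not tested, with median percentiles of 88.2 against 27.0 in replicate 1 and 82.6 against 61.5 in replicate 2; in replicate 1 the value of 27.0 is that of genes with no ranked peak.

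The ranked lists gave every gene a place, with or without a thresholded peak. A ranked peak within 500 bp of a start was found for 33 of the 37 genes (89.2%) in the conservative ranked list, against 60.7% of all protein-coding genes. In replicate 1 it was 26 (70.3%, against 46.1%), in replicate 2 it was 27 (73.0%, against 50.6%), and in the other ranked list it was 31 (83.8%, against 62.3%). The median percentile of the 37 genes was 79.9 in the conservative ranked list, 82.1 in replicate 1 and 79.1 in replicate 2. In the conservative list 29 of the 37 stood above the 50th percentile, 15 above the 90th and 4 above the 99th. The 4 above the 99th and 6 of the 15 above the 90th were genes with a conservative thresholded peak. The 4 genes without a peak there were sdhb-1, sdhd-1, cox-10 and cox-14.

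The high ranking depended on the width of the window. Within 200 bp only 16 of the 37 genes (43.2%) had a ranked peak in the conservative list, against 35.1% of other protein-coding genes, and the median percentile of the group fell to 32.5, the value of genes with no peak. Within 300 bp the count was 27 (73.0%, against 46.1% of the others). For thresholded peaks the counts were 2 of 37 (5.41%) against 0.351% of the others within 100 bp, 3 (8.11%) against 0.682% within 200 bp, and 8 (21.6%) against 2.14% within 1000 bp.

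**Figure D3:**
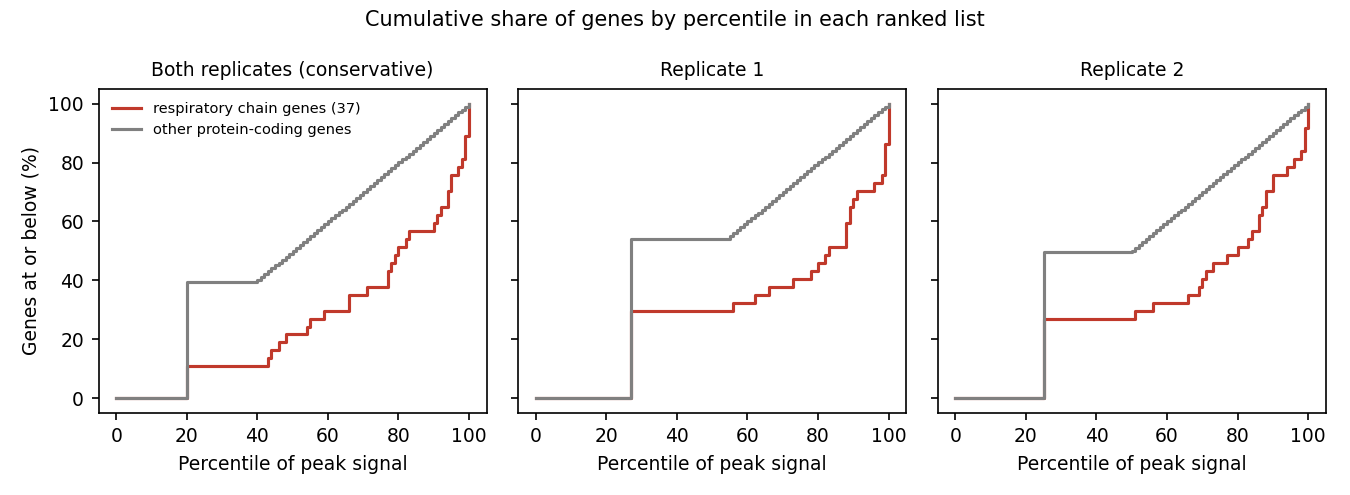
Cumulative share of genes (y axis, %) at or below each percentile of peak signal (x axis) for the 37 respiratory chain genes and the other protein-coding genes, in the conservative, replicate 1 and replicate 2 ranked lists; the step at the left of each panel holds the genes without a ranked peak. The curve of the respiratory chain genes lies below that of the other genes in each panel, with medians of 79.9, 82.1 and 79.1.

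A looser threshold added few members. At an IDR of at most 0.05 the same 6 genes were counted (16.2%), against 2.72% of all protein-coding genes. At 0.1 ucr-2.2 joined them (18.9%, against 3.87%), and at 0.2 isp-1 and nuo-5 did (24.3%, against 5.83%). At 0.001 cox-5A, cox-5B and atp-1 were left (8.11%, against 0.471%).

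The replicates agreed on some of the highest members and differed on others. Of the 14 members above the 90th percentile in either replicate ranked list, 7 were above it in both. These 7 (18.9% of the 37, against 3.78% of all protein-coding genes) were the genes with a thresholded peak. The thresholded lists draw on the same replicates, so this match is not independent of them. At atp-5 the best summits of the replicates lay 467 bp apart. Among the rest, atp-2 stood at percentile 98.3 in replicate 1 and had no ranked peak in replicate 2. Across the 37 genes Spearman's rho of the percentiles was 0.628, and across all protein-coding genes it was 0.365; both replicates name the same control, and genes without a peak are tied in both. Of the 22 members with a peak in both replicates, the best summits lay within 50 bp of each other at 12, with a median gap of 37.5 bp. Such gaps were not computed for other protein-coding genes, so this count has no share to be read against. The gap was 0 bp at isp-1 and ucr-11, and over 400 bp at atp-3, atp-5, cox-11, cox-4, sdha-1 and sdha-2. No ranked peak was found in either replicate for 6 members.

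**Figure D4:**
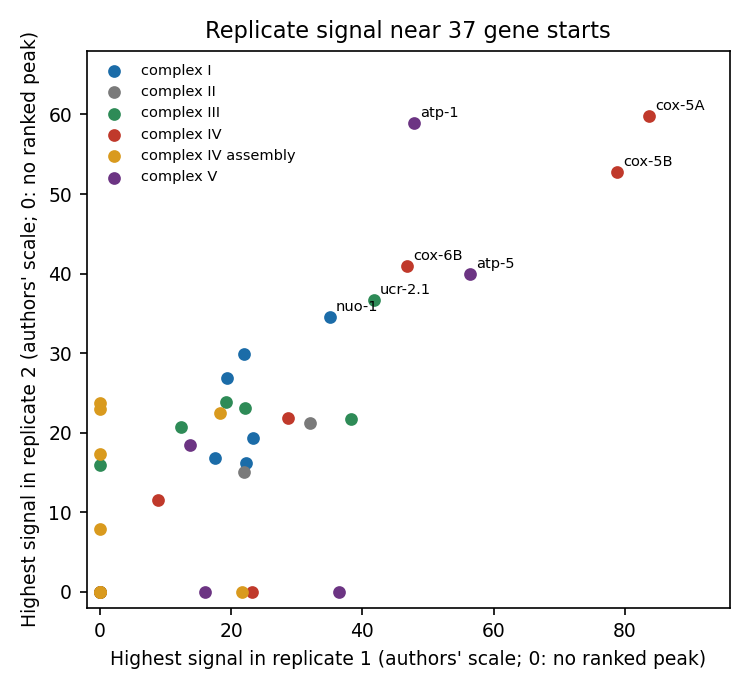
Highest signal within 500 bp of a start in replicate 1 (x axis) and replicate 2 (y axis) for the 37 genes, each on the authors' scale for that list and coloured by complex; 0 stands for no ranked peak. The 7 labelled genes with a thresholded peak have 35.0 or more in replicate 1 and 34.6 or more in replicate 2; atp-2 and ucr-2.2 also exceed 35.0 in replicate 1 but reach at most 21.8 in replicate 2.

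The genes around the members differed from those around other protein-coding genes. An opposite-strand protein-coding start lay within 1000 bp upstream of 19 of the 37 genes (51.4%), against 18.7% of the others. Of these 19 genes 4 had a conservative peak (21.1%), against 3.97% of the other protein-coding genes with such a neighbour. Without such a neighbour 2 of 18 members (11.1%) had one, cox-5A and cox-5B, against 0.852% of the others. Divergent neighbours therefore shared the peak at atp-1, cox-6B, nuo-1 and ucr-2.1, and the summit was nearer to another gene's start than to the member's at cox-6B, nuo-1 and ucr-2.1. Which of the genes at a shared peak it belongs to was not tested.

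Many members sat close behind another gene on the same strand, the arrangement of genes in worm operons. The end of a same-strand protein-coding gene lay within 500 bp upstream of 14 of the 37 (37.8%), against 18.1% of the others. None of these 14 had a thresholded peak in any list at its own start, while 6 of the other 23 (26.1%, exact 95% interval 10.2 to 48.4) had one in the conservative list. The interval for 0 of 14 reaches 23.2%, so the intervals overlap, and the difference between these shares was not tested. Among the other protein-coding genes 0.833% of those close behind another gene had a peak and 1.57% of the rest did. Followed upstream from gene to gene at gaps of at most 500 bp, 2 of the 14 chains had a conservative peak at the start of the first gene (14.3%, against 2.80% of the 3601 such other genes); this way of grouping was added once the peaks were known. The chain of cox-11 began at lin-54, a gene of the DREAM repressor complex, at a peak of 139.96 shared with rpl-12. That of cox-18 began at Y55F3AR.2, at a peak of 154.9 near cct-8, a cytosolic chaperonin gene. These summits lay 3622 and 3116 bp upstream of cox-11 and cox-18.

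Other mitochondrial gene lists were set beside the respiratory chain genes in the conservative list. Of 26 further respiratory chain genes outside the naming rule, 1 (3.85%) had a peak, the copper chaperone gene sco-1 (signal 142.8, 212 bp upstream). Of 70 mitochondrial ribosomal protein genes 1 (1.43%) had a peak, mrpl-55 (65.9), a share close to the 1.46% of all protein-coding genes. Of 16 import genes 1 (6.25%) did, tomm-20 (69.4), an outer membrane receptor. None of 19 TCA cycle genes, 8 ubiquinone synthesis genes and 2 mitochondrial chaperone genes had a peak. Among 4 adenine nucleotide translocator genes, which exchange ADP and ATP across the inner membrane, ant-1.1 (25%) had one (77.6). Of 20 vacuolar ATPase genes, which encode a proton pump outside mitochondria, vha-8 (5%) had one (91.4, 450 bp upstream). Cytosolic ribosomal protein genes had a peak at 18 of 81 (22.2%), and the 6 highest were rps-1 (148.0), rps-24 (191.4), rpl-35 (231.9), rpl-20 (233.8), rpl-15 (324.7) and rpl-3 (443.5). The 18 included rpl-36.A, whose peak is that of nuo-1. These shares are to be read against the 1.46% of all protein-coding genes. In the conservative ranked list 89.2% of the respiratory chain genes had a peak and their median percentile was 79.9. The other lists stood above and below that. The share was 90.1% and the median percentile 91.4 for cytosolic ribosomal protein genes, 87.5% and 65.7 for ubiquinone synthesis genes, and 84.2% and 75.04 for TCA cycle genes. For the 26 further respiratory chain genes the share was 69.2% and the median percentile 59.8. The values were 71.4% and 55.6 for mitochondrial ribosomal protein genes, 70% and 54.2 for vacuolar ATPase genes, and 56.25% and 44.9 for import genes. The 4 translocator genes had 25% and 19.6, and the 2 mitochondrial chaperone genes 100% and 90.3. The difference between lists was not tested, and the intervals of the small lists are wide: 0 of 19 allows up to 17.6%.

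**Figure D5:**
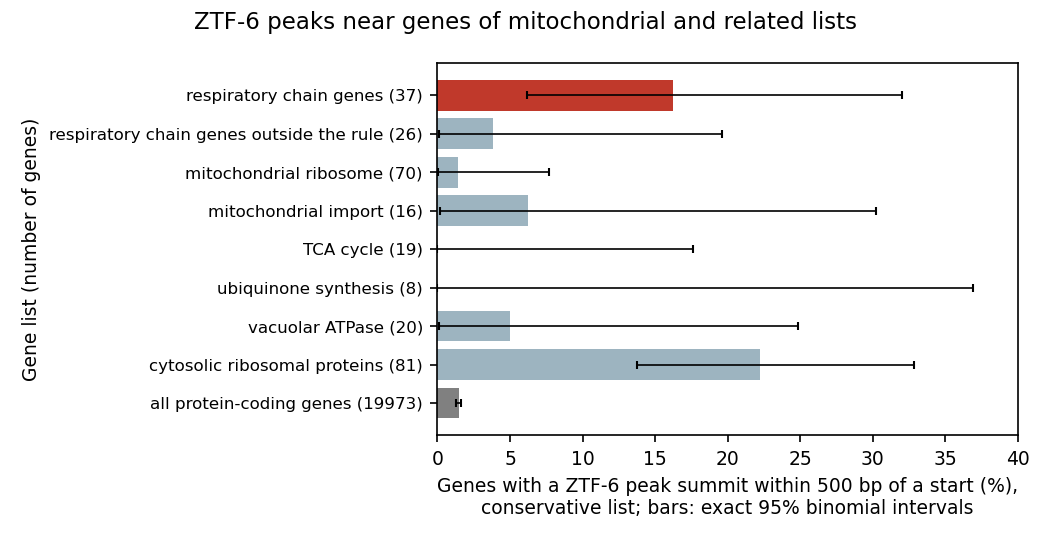
Share of genes with a conservative ZTF-6 peak summit within 500 bp of a start (x axis, %) for the respiratory chain genes, other gene lists of at least 8 genes and all protein-coding genes (y axis), with exact 95% binomial intervals that cover counting error only. Respiratory chain genes stand at 16.2% and cytosolic ribosomal protein genes at 22.2%, against 1.46% of all protein-coding genes.

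Number of starts and peak position were compared as well. The median number of annotated starts was 1 for the members and 1 for the others. Of 29 members with a single start 4 had a conservative peak (13.8%), against 1.07% of other genes with a single start, and of 8 members with more starts 2 did (25%, against 2.40%). The summits lay a median of 211 bp upstream (28 to 302 bp), against 194 bp for the 298 pairs of a peak and another protein-coding gene, of which 85.9% were upstream. The signals of the 6 peaks had a median of 94.2, against 86.0 for those pairs. The 12 protein-coding genes of the mitochondrial genome were not scored, because the lists hold 0 peaks there.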

How the data were processed

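ChIP-seq peak lists of 2 replicates were used. Per the file lists deposited with the samples, peaks derive from filtered alignments and a control alignment on ce11, and the thresholded lists also from a further annotation file, which was not used here. The sources used here do not give the aligner or the peak caller. Per the file lists and the values, the authors deposited for each peak a signal, a score scaled from the IDR, and −log10 q-values and −log10 IDR; the 551 conservative peaks were all found in 1 ranked list at an IDR no higher than 0.01, and that list is called the conservative ranked list. Starts were taken from Ensembl release 115, whose genes, like all peaks, lay within the lengths of the 6 nuclear chromosomes of RefSeq WBcel235. Genes without a ranked peak were tied at the bottom of the percentiles. Intervals are exact binomial (Clopper-Pearson) at the 95% level and cover counting error only. With 1 group of 2 replicates and no counts, no test was run between groups; shares are read beside those of all protein-coding genes. The assignment of peaks to genes was tested on simulated data. Named were all members with a thresholded peak, the highest and lowest others of each complex, and genes with a peak in the other lists. Members, lists and words were chosen with earlier results of these data known. Python 3.11.15, pandas 2.3.3 and scipy 1.17.1 were used. Alternatives were other windows, starts, lists and IDR thresholds.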

Additional observations from a re-analysis of the deposited data

How the results depend on the processing

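The count of 6 respiratory chain genes was 3 (8.11%) at a window of 200 bp (atp-1, cox-5B and cox-6B), against 0.696% of all protein-coding genes. It was also 3 with the nearest start of any gene only, against 0.876%. At an IDR of at most 0.001 it was again 3, against 0.471% (atp-1, cox-5A and cox-5B in both settings). In single-replicate lists it was 3 (8.11%) without replicate 1, against 0.696%, and 5 (13.5%) without replicate 2, against 0.661%. Under the other 7 alternatives it was 5 to 8. The share of members was then 13.5% to 21.6%, against 1.34% to 2.72% of all protein-coding genes where that was computed. It was not computed for the first gene of each chain, a setting chosen after seeing the data. The count was 5 at the most upstream start of each gene (against 1.34%), where cox-6B was lost. The median percentile of 79.9 was 32.5 at a window of 200 bp, 82.7 at 1000 bp, 70.1 with nearest starts only, 71.6 with genes without a ranked peak left out and 90.8 without assembly factors. In single replicates it was 79.1 to 82.1, and under the other 3 alternatives it moved by less than 2.12. That is the SD of the medians of the 2 replicate lists, and an SD of 2 values is only a rough yardstick. At 200 bp only 16 of the 37 members had a ranked peak. The upstream share was 100% under all 7 alternatives, on 3 to 8 peaks. It was 85.9% for pairs of a conservative peak and another protein-coding gene. No paired analysis was possible because there was 1 group. Depth is unknown, so the absence of a peak does not show the absence of binding.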
